A study of Homo sapiens with 36 samples.

Results

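The genes described here are 9 components of the interferon signalling pathway: the type I receptor subunits IFNAR1 and IFNAR2, the type II receptor subunits IFNGR1 and IFNGR2, the kinases JAK1 and JAK2, and the transcription factors STAT2, IRF9 and IRF1. They were taken by gene symbol from a table of 26475 genes, and all 9 were found. All 9 passed the low-count filter in each experiment.

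Interferons are secreted proteins that cells release on infection and that change transcription in the cells that bind them. IFNAR1 and IFNAR2 together bind the type I interferons. JAK1 sits on IFNAR2, and the receptor's kinases phosphorylate STAT2, which joins a partner STAT protein and the DNA-binding protein IRF9 in a complex that binds interferon-stimulated response elements. IFNGR1 binds interferon gamma, IFNGR2 is its signal-transducing partner, and their kinases JAK1 and JAK2 activate STAT dimers that bind gamma-activated sites. IRF1 is a transcription factor that is itself switched on through such sites, and in carcinoma cells the pathway is known for raising antigen presentation and slowing growth.

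The study sequenced poly-A RNA from 36 libraries of cultured human carcinoma cells, in 4 experiments of 9 libraries with 3 biological replicates per arm. WiDr is a colorectal adenocarcinoma line, PANC-1 a pancreatic ductal carcinoma line and MDA-MB-468 a basal-like breast carcinoma line. WiDr cells carried CRISPR guide 2, guide 1 or the non-targeting guide NT-1. In separate experiments WiDr, PANC-1 and MDA-MB-468 cells carried pGIPZ hairpin #2, hairpin #1 or the non-silencing hairpin pGIPZ-NS. All cells grew in DMEM with 10% fetal bovine serum, and the labels name no interferon or other agent. Every arm, the controls included, carried a delivered construct, and the labels describe no untransduced cells. No source used here says whether an arm was a clone or a pool. In PANC-1 the arm of hairpin #2 is written below as libraries labelled hairpin 2. For 4 of the 6 targeting guide libraries the title and the genotype field name different guides. The titles were used, and every guide result below carries that limit.

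Library totals ran from 28371127 to 49237322 estimated counts, and replicates differed by more than sampling noise (chi-square per degree of freedom 3.50 to 188). Levels are in CPM (normalised by TMM), in which fewer expressing cells and less RNA per cell cannot be told apart. Ribosomal RNA genes took 0.838% to 10.2% of a library, with WiDr hairpin 2 at 5.38% to 10.2% against 1.59% to 2.71% in the WiDr hairpin controls, and PANC-1 controls at 4.61% to 9.60% above both of their hairpin arms (0.838% to 2.60%). In the control arms KRT20, an intestinal keratin, averaged 268 CPM (WiDr guides) and 725 CPM (WiDr hairpins), VIM averaged 3976 CPM in PANC-1, and the basal keratin KRT5 averaged 1578 CPM in MDA-MB-468. CDX2, an intestinal transcription factor, was low in WiDr, at 1.59 CPM in the guide controls and 2.98 CPM in the hairpin controls. It averaged 10.6 CPM in PANC-1 controls. In WiDr hairpin controls the intestinal genes CDH17 and CDX1 were also low (0.472 and 0.800 CPM), while LGALS4, CEACAM5 and VIL1 were higher (432, 191 and 55.1 CPM). GABRP, listed as basal, averaged 114 CPM (WiDr guide controls), 51.5 CPM (WiDr hairpin controls) and 28.3 CPM (MDA-MB-468 controls). The other basal genes listed, EGFR, KRT14, KRT17 and KRT6B, were highest in MDA-MB-468 controls. In PANC-1 controls the pancreatic factor GATA6 averaged 0.0760 CPM. SOX9, listed with VIM and GATA6, averaged 116 CPM in PANC-1 controls and 114 CPM in MDA-MB-468 controls. It was higher in WiDr, at 148 CPM (guide controls) and 182 CPM (hairpin controls). The others listed with them, AXL, ZEB1 and KRT19, had their highest control mean in PANC-1. The leukocyte genes PTPRC and CD3E were below 0.2 CPM in the mean of each control arm. Of the same list, LYZ, a lysozyme that secretory epithelium also makes, averaged 2008 CPM in WiDr guide controls and 1553 CPM in WiDr hairpin controls, and CD14 averaged 18.9 CPM in MDA-MB-468 controls and below 2 CPM in the other control arms.

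The promoters of IRF1 and IRF9 are shown because these genes moved most and because, of 8 genes with a RefSeq promoter entry, only these held a motif searched for. RefSeq promoter entries (GRCh38.p14) were read over the 250 bases before each RefSeq start, 15 windows in all since some genes have several, on both strands, for the gamma-activated site TTCNNNGAA and the interferon-stimulated response element core (GAAA, any 2 bases, GAAA). IFNAR2 had no promoter entry. The IRF9 window runs from 24161015 to 24161264 on chromosome 14 and the IRF1 window from 132490774 to 132491023 on chromosome 5, and distances are counted from the RefSeq start at the window's edge, which for both lies inside the GENCODE gene span given below. Capitals mark the matches, and the 3 stretches are written on the gene's own strand.
IRF1, chr5:132490799-132491023, minus strand, 250 to 26 bases before the RefSeq start: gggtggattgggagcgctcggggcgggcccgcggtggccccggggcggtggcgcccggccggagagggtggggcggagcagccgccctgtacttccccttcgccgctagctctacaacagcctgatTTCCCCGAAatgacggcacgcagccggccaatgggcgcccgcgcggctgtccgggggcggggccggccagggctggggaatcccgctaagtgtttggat
IRF9, chr14:24161194-24161218, plus strand: cacgtgatTTCTGGGAAaaggccct
IRF9, chr14:24161221-24161245, plus strand: ctggaggaGAACTGAAActtagggt
The IRF1 match to TTCNNNGAA begins 124 bases before the RefSeq start, in sequence that no GENCODE exon covers. The IRF9 match to TTCNNNGAA begins 63 bases before the RefSeq start, within the GENCODE gene span. A looser response element pattern, GAANNGAAA, was written after the IRF9 sequence had been seen, and it matched 36 bases before the same RefSeq start, also within that span. GENCODE annotates exons of IRF9 transcripts and of AL136295.5 over both IRF9 matches, which do not overlap each other. Among 35116 promoters, 6.57% held TTCNNNGAA, 3.02% held the response element core and 6.56% held GAANNGAAA. None of the 15 windows held that core, which says only that these letters are not in those windows.

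The type I receptor genes lie together on chromosome 21 (GRCh38). IFNAR1 spans 33324477 to 33359862 and IFNAR2 spans 33229901 to 33265675, both on the plus strand, and IFNGR2 lies nearby at 33402896 to 33479348. IFNGR1 lies on chromosome 6 at 137197484 to 137219449 on the minus strand. JAK1 lies on chromosome 1 at 64833229 to 64966504 (minus) and JAK2 on chromosome 9 at 4984390 to 5128183 (plus). STAT2 lies on chromosome 12 at 56341597 to 56360155 (minus), IRF9 on chromosome 14 at 24161053 to 24166565 (plus) and IRF1 on chromosome 5 at 132481609 to 132490798 (minus).

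The RNA levels of these genes in the control arms differed between the lines, most of all for IRF9. The lines were compared across separate experiments, so line and experiment cannot be told apart. In the control arms IRF9 averaged 59.3 CPM (WiDr guides), 59.4 CPM (WiDr hairpins), 9.61 CPM (PANC-1) and 5.92 CPM (MDA-MB-468). WiDr hairpin controls were 3.31 ± 0.0972 above MDA-MB-468 controls on the log2 scale (edgeR, SE, adjusted p = 4.87e-11), and PANC-1 was 0.67 ± 0.0942 above MDA-MB-468 (adjusted p = 4.49e-05). The WiDr guide and hairpin controls differed by -0.03 (SE 0.0864, adjusted p = 0.860). IFNGR1, the ligand-binding chain for interferon gamma, had another order, highest in MDA-MB-468 and lowest in PANC-1, with 81.8, 114, 43.0 and 243 CPM in the control arms of the WiDr guide, WiDr hairpin, PANC-1 and MDA-MB-468 experiments. Its difference between PANC-1 and MDA-MB-468 was -2.53 ± 0.0724 (adjusted p = 3.26e-11). Of all genes, 72.4% differed between PANC-1 and MDA-MB-468 controls, 74.7% between WiDr hairpin and MDA-MB-468 controls and 75.1% between WiDr hairpin and PANC-1 controls, so the counts of 8, 9 and 7 of these 9 genes are read against those shares. The WiDr guide controls differed from both other lines for all 9, beside 75.2% of all genes against PANC-1 and 73.8% against MDA-MB-468, with JAK2 against PANC-1 (0.64) lost without PANC-1 control replicate 2 or 3 or guide control replicate 2 (adjusted p = 0.0546 to 0.0852).

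IFNAR2, the chain that holds JAK1, was low in WiDr, at 6.75 CPM (guide controls) and 7.52 CPM (hairpin controls), against 18.3 CPM in PANC-1 and 29.03 CPM in MDA-MB-468. IFNGR2 was highest in PANC-1, with 54.9, 69.7, 87.4 and 44.4 CPM in the same order of experiments. IRF1 was highest in the WiDr hairpin controls, at 99.5 CPM, against 33.9 CPM in PANC-1 and 27.6 CPM in MDA-MB-468. In the WiDr guide controls it was 60.7 CPM, 0.74 ± 0.0738 lower on the log2 scale than in the WiDr hairpin controls (adjusted p = 4.08e-05). STAT2 was 52.7 CPM in WiDr guide controls, 35.3 CPM in WiDr hairpin controls, 34.8 CPM in PANC-1 and 22.9 CPM in MDA-MB-468. Neighbours in the order of levels that did not pass the test were WiDr hairpin and PANC-1 controls for IFNAR1 and STAT2, PANC-1 and MDA-MB-468 controls for JAK1, and the WiDr guide and hairpin controls for IFNAR2, JAK1, JAK2 and IRF9. The remaining WiDr guide against hairpin control differences, 5 of 9 genes, stand beside 26.4% of all genes, and that of IFNAR1 was lost without guide control replicate 3 (adjusted p = 0.0611).

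Per kilobase of the principal GENCODE transcript, JAK2 was the lowest of the 9 genes in every control arm, at 1.38, 1.51, 0.880 and 2.59 CPM per kilobase in the WiDr guide, WiDr hairpin, PANC-1 and MDA-MB-468 experiments. JAK1, the kinase shared by both receptors, was at 20.7, 26.6, 42.0 and 37.4 CPM per kilobase in the same arms. IFNGR1 led in WiDr guide, WiDr hairpin and MDA-MB-468 controls, at 38.2, 53.1 and 114 CPM per kilobase, and JAK1 led in PANC-1.

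**Figure D1:**
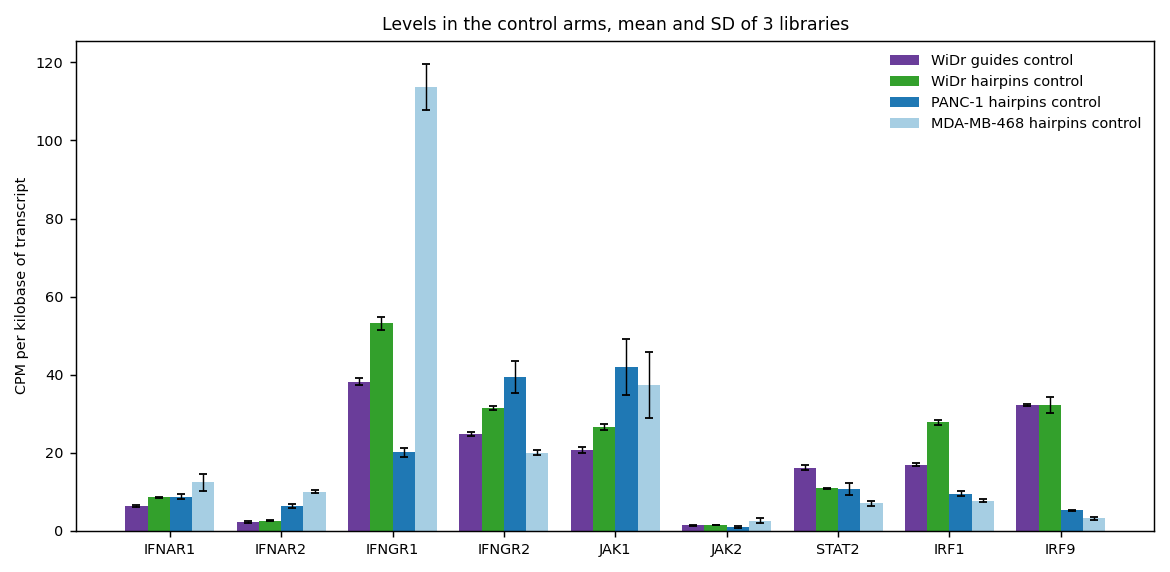
Level of the 9 genes in the control arm of each experiment, in CPM per kilobase of transcript (y axis), bars showing the mean and error bars the SD of 3 libraries. IFNGR1 stands at 20.1 CPM per kilobase in PANC-1, against 114 for MDA-MB-468, IRF9 at 32.3 in both WiDr experiments against 5.23 in PANC-1 and 3.22 in MDA-MB-468, and JAK2 is lowest throughout.

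IRF9, the DNA-binding subunit of the STAT complex, changed most. WiDr cells with guide 2 had 41.3, 42.7 and 45.8 CPM and those with guide 1 had 60.1, 62.7 and 68.5 CPM, against 58.6, 59.7 and 59.7 CPM with the non-targeting guide. All 3 guide 2 libraries lay below all controls, while the guide 1 libraries lay above them without passing the test. The log2 fold change was -0.44 ± 0.0594 with guide 2 (adjusted p = 5.91e-05) and 0.12 ± 0.0583 with guide 1 (adjusted p = 0.121), and guide 2 was 0.55 ± 0.0590 lower than guide 1 on the log2 scale (adjusted p = 1.67e-06). With guides grouped by the genotype field, the single library of guide 2 stood 0.21 above control and no test of IRF9 passed (adjusted p = 0.596).

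In WiDr cells with hairpin 2, IRF9 was at 22.8, 23.9 and 21.8 CPM, and with hairpin 1 at 48.96, 49.1 and 48.1 CPM, against 56.6, 63.6 and 58.0 CPM with the non-silencing hairpin. None of the 3 arms overlapped another. IRF9 fell by 1.38 on the log2 scale with hairpin 2 (SE 0.0616, adjusted p = 5.98e-11) and fell by 0.29 with hairpin 1 (SE 0.0588, adjusted p = 0.000813). Hairpin 2 lay a further -1.09 ± 0.0618 from hairpin 1 (adjusted p = 2.09e-09).

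PANC-1 cells moved in the other direction. Libraries labelled hairpin 2 had 15.2, 15.2 and 15.5 CPM of IRF9, and hairpin 1 had 18.2, 15.6 and 16.03 CPM, against 9.70, 9.59 and 9.53 CPM in controls. Both arms lay above all controls, and IRF9 rose by 0.65 ± 0.0874 (adjusted p = 0.000590) in the libraries labelled hairpin 2 and by 0.81 ± 0.0873 with hairpin 1 (adjusted p = 0.000174). In MDA-MB-468 the 3 arms overlapped, between 4.98 and 6.77 CPM, with log2 fold changes of -0.09 (adjusted p = 0.901) for hairpin 2 and -0.15 (adjusted p = 0.776) for hairpin 1.

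**Figure D2:**
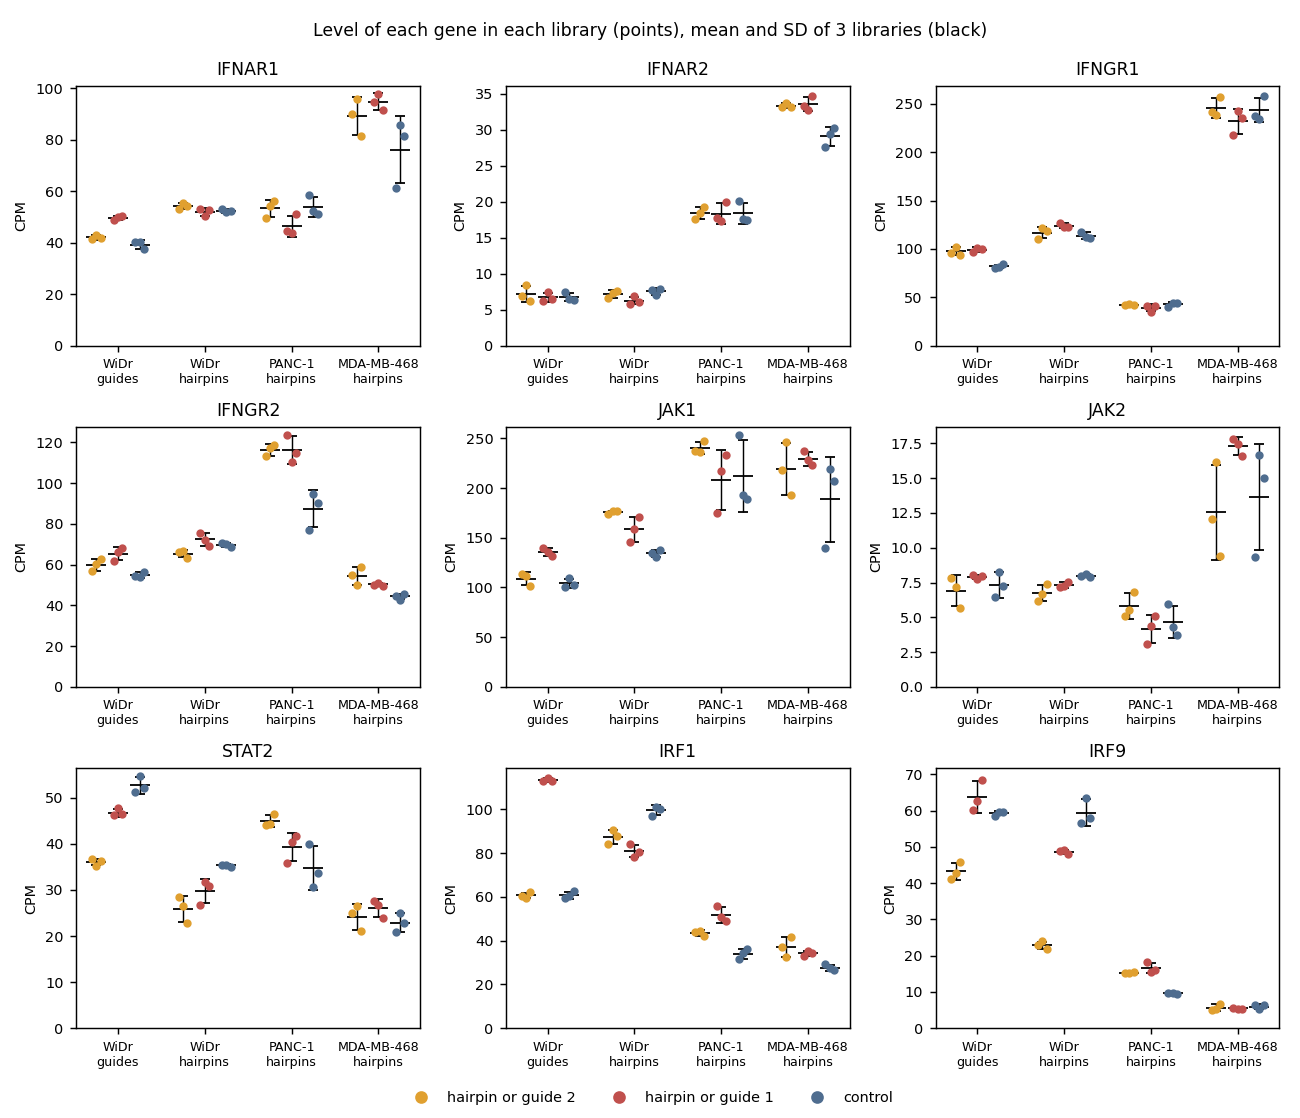
CPM of each gene (y axis, from 0) in every library, with hairpin or guide 2, hairpin or guide 1 and the control from left to right within each experiment, points showing single libraries and black bars the mean and SD of 3. IRF9 lies at 21.8 to 23.9 CPM in WiDr hairpin 2 against 56.6 to 63.6 CPM in controls, while in PANC-1 both hairpin arms lie above the controls.

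STAT2, the transactivating partner of IRF9, fell in both WiDr experiments. Guide 2 libraries had 36.7, 35.3 and 36.3 CPM and guide 1 libraries 46.2, 47.7 and 46.4 CPM, against 51.2, 54.7 and 52.2 CPM with the non-targeting guide. The arms did not overlap, and the log2 fold change was -0.53 ± 0.0532 with guide 2 (adjusted p = 2.29e-06) and -0.16 ± 0.0524 with guide 1 (adjusted p = 0.0217). The guide 1 call was lost without control replicate 2 (-0.13, adjusted p = 0.115), guide 1 replicate 1 (adjusted p = 0.0523) or guide 1 replicate 3 (adjusted p = 0.0802).

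With WiDr hairpin 2, STAT2 was at 28.4, 26.6 and 22.8 CPM and with hairpin 1 at 26.8, 31.8 and 30.8 CPM, against 35.5, 35.5 and 35.0 CPM in controls. Every hairpin library lay below every control. STAT2 fell by 0.44 on the log2 scale with hairpin 2 (SE 0.0781, adjusted p = 0.000266) and by 0.25 with hairpin 1 (SE 0.0777, adjusted p = 0.0159). In PANC-1 the libraries labelled hairpin 2 held 44.1, 44.3 and 46.5 CPM and those of hairpin 1 held 35.8, 40.4 and 41.7 CPM, against 40.1, 30.7 and 33.7 CPM in controls. The libraries labelled hairpin 2 lay above all controls (0.35 ± 0.107, adjusted p = 0.0319), while hairpin 1 overlapped them (0.20, adjusted p = 0.195). The first of these calls was lost without control replicate 2 (0.27, adjusted p = 0.113) or 3 (adjusted p = 0.107), without hairpin 1 replicate 3 (adjusted p = 0.0530) and without any of the libraries labelled hairpin 2 (adjusted p = 0.0825 to 0.0940). Without control replicate 1 the hairpin 1 value was 0.28 and passed (adjusted p = 0.0317). MDA-MB-468 arms overlapped for STAT2, between 20.9 and 27.6 CPM.

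IRF1, the interferon-gamma-responsive factor, differed most between the WiDr guides. Guide 2 libraries had 60.3, 59.6 and 62.0 CPM, guide 1 libraries 113, 114 and 113 CPM, and non-targeting libraries 59.4, 60.3 and 62.5 CPM. All guide 1 libraries lay above both other arms, which overlapped. The log2 fold change was 0.02 (adjusted p = 0.843) with guide 2 and 0.91 ± 0.0477 with guide 1 (adjusted p = 3.68e-10, 1.88-fold), and the difference between the guides was -0.90 ± 0.0476 (adjusted p = 3.59e-10). By the genotype field the libraries of guide 1 averaged 0.45 above control, which did not pass (adjusted p = 0.334).

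In WiDr hairpin arms IRF1 fell instead. Hairpin 2 had 84.1, 90.5 and 87.6 CPM and hairpin 1 had 84.1, 78.3 and 80.5 CPM, against 96.9, 101 and 100 CPM in controls. IRF1 fell by 0.18 with hairpin 2 (SE 0.0502, adjusted p = 0.00724) and by 0.30 with hairpin 1 (SE 0.0505, adjusted p = 0.000158), on the log2 scale. In PANC-1 the libraries labelled hairpin 2 had 44.1, 44.3 and 41.9 CPM and hairpin 1 had 55.6, 50.6 and 48.95 CPM, against 31.6, 34.1 and 36.03 CPM in controls. No targeting library overlapped the controls, and the log2 fold changes were 0.34 ± 0.0902 in the libraries labelled hairpin 2 (adjusted p = 0.0190) and 0.63 ± 0.0903 with hairpin 1 (adjusted p = 0.000913). The first was lost without control replicate 2 (adjusted p = 0.0558) and without replicate 1 or 2 of the libraries labelled hairpin 2 (adjusted p = 0.0844 and 0.0812).

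In MDA-MB-468, IRF1 was at 37.1, 32.6 and 41.8 CPM with hairpin 2 and 33.2, 35.1 and 34.2 CPM with hairpin 1, against 29.2, 27.2 and 26.4 CPM in controls. Every targeting library lay above every control, yet neither log2 fold change passed in edgeR (0.40, adjusted p = 0.0667 with hairpin 2, and 0.28, adjusted p = 0.241 with hairpin 1). The hairpin 2 value passed without control replicate 1 (0.46, adjusted p = 0.0412), without hairpin 2 replicate 2 (0.47, adjusted p = 0.0475) and in DESeq2 (0.40, adjusted p = 0.00547).

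**Figure D3:**
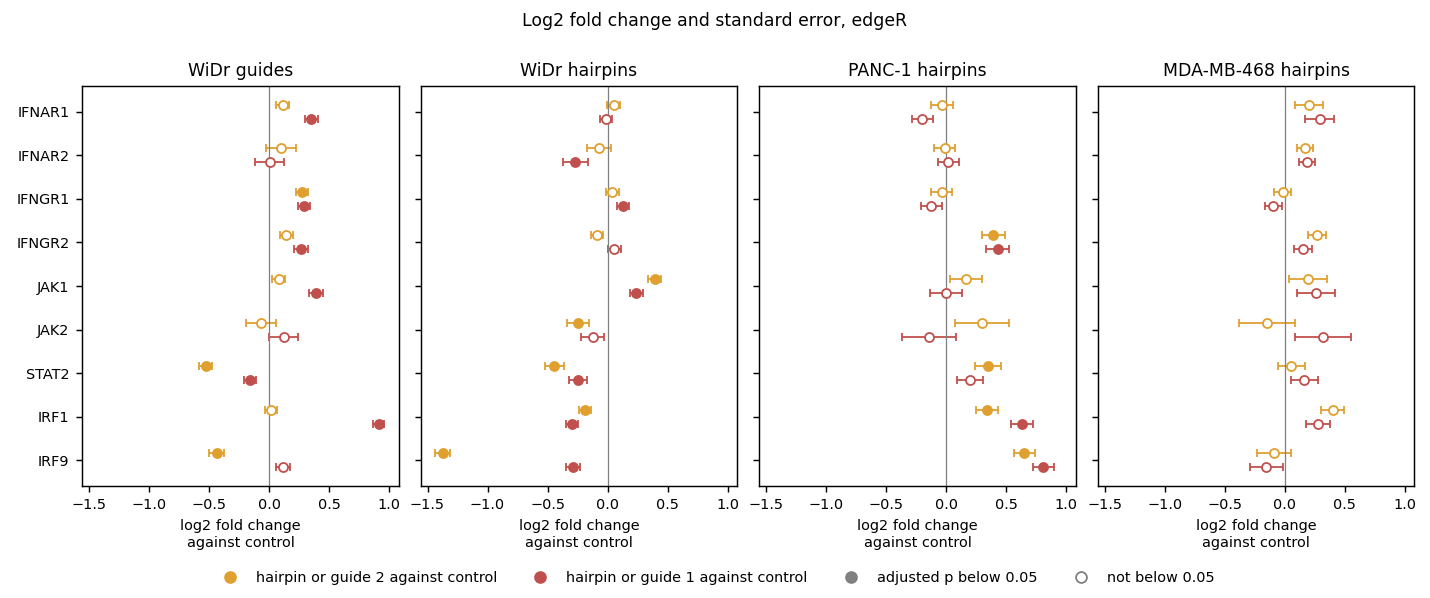
Log2 fold change (x axis) of the 9 genes with hairpin or guide 2 (upper point of each row) and 1 (lower point) against the control of the same experiment, error bars showing the standard error, filled points having an adjusted p below 0.05 (edgeR). IRF9 runs from -1.38 in WiDr hairpin 2 to 0.81 in PANC-1 hairpin 1, and no point is filled in MDA-MB-468.

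JAK1 rose with 3 of the 4 WiDr constructs. With WiDr guide 2 it was at 114, 112 and 101 CPM and with guide 1 at 139, 136 and 132 CPM, against 101, 109 and 103 CPM with the non-targeting guide. Guide 1 lay above both other arms, which overlapped, and the log2 fold changes were 0.08 (adjusted p = 0.308) with guide 2 and 0.39 ± 0.0551 with guide 1 (adjusted p = 2.58e-05). Hairpin 2 had 174, 177 and 177 CPM and hairpin 1 had 146, 159 and 171 CPM, against 134, 130 and 138 CPM in WiDr hairpin controls. Both hairpin arms lay above all controls (hairpin 2, 0.39 ± 0.0526, adjusted p = 2.12e-05, and hairpin 1, 0.24 ± 0.0527, adjusted p = 0.00148).

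The difference of JAK1 between the WiDr hairpins, 0.15 (adjusted p = 0.0269), was lost without hairpin 1 replicate 1 or 2 or any hairpin 2 library (adjusted p = 0.0548 to 0.0961), and a correction for transcript length left 0.06 (adjusted p = 0.194).

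In PANC-1 and MDA-MB-468, JAK1 and JAK2 had a wide spread within some arms. JAK1 in PANC-1 had 237, 236 and 247 CPM in the libraries labelled hairpin 2 and 175, 217 and 233 CPM with hairpin 1, against 254, 193 and 189 CPM in controls. In MDA-MB-468 it had 218, 246 and 193 CPM with hairpin 2 and 237, 228 and 223 CPM with hairpin 1, against 139, 220 and 207 CPM in controls. MDA-MB-468 hairpin 1 libraries lay above all of their controls for JAK1, while the other hairpin arms overlapped the controls. None of these 4 comparisons passed for JAK1 or JAK2.

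These same libraries differed by transcript length. The median log2 deviation from the group mean of genes with transcripts over 5537 bases, minus that of genes with transcripts under 1876 bases, was computed from 11075 of 11542 well-expressed genes. PANC-1 control replicates 1, 2 and 3 stood at 0.622, -0.324 and -0.291, PANC-1 hairpin 1 replicate 1 at -0.440, MDA-MB-468 control replicates 1 and 2 at -0.527 and 0.439, and MDA-MB-468 hairpin 2 replicates 2 and 3 at 0.462 and -0.405. Over the 9 libraries of an experiment the deviations of JAK1 from its group means followed this measure with r = 0.982 in PANC-1 and 0.939 in MDA-MB-468, those of JAK2 with r = 0.888 and 0.985 and those of STAT2 with r = 0.954 and 0.904. IRF1 ran against it, at r = -0.902 in PANC-1 and -0.811 in MDA-MB-468, as did IFNGR2, at -0.918 and -0.733, and IRF9, at -0.459 and -0.701. In WiDr guides IFNGR2 stood at r = -0.922 and IRF9 at -0.851, and in WiDr hairpins IFNGR2 stood at -0.734, IRF9 at -0.422 and JAK1 at 0.886. JAK1 and JAK2 transcripts measure 5047 and 5285 bases, and the libraries share their depth and RNA, so these r values describe libraries and carry no test. The measure also differed between arms in the WiDr hairpin experiment, at 0.143 to 0.214 in hairpin 2 and -0.373 to 0.0341 in hairpin 1 against -0.132 to 0.0321 in controls, taken from the experiment mean. With length bins as a correction, the JAK1 calls in WiDr were kept at 0.35 with hairpin 2, 0.28 with hairpin 1 and 0.41 with guide 1, and guide 2 passed as well (0.13, adjusted p = 0.0295). None of the calls of the 9 genes against a control was lost with that correction, which gave -1.28 for IRF9 with WiDr hairpin 2, and 0.34 for STAT2 (adjusted p = 0.0108), 0.50 for IFNGR2 and 0.29 for IRF1 (adjusted p = 0.0267) in the PANC-1 libraries labelled hairpin 2. In MDA-MB-468 it brought IFNAR1 (0.21), IFNGR2 (0.26) and IRF1 (0.40) past the threshold with hairpin 2 (adjusted p = 0.0357, 0.00924 and 0.0421). With hairpin 1 it brought IFNAR1 past the threshold (0.24, adjusted p = 0.0248). More of all genes also passed with both MDA-MB-468 hairpins under this correction, which was added after the data had been seen. IFNAR1 with WiDr guide 2 (0.19, adjusted p = 0.0194) and IFNGR1 with WiDr hairpin 2 (0.12, adjusted p = 0.0267) also passed with it.

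**Figure D4:**
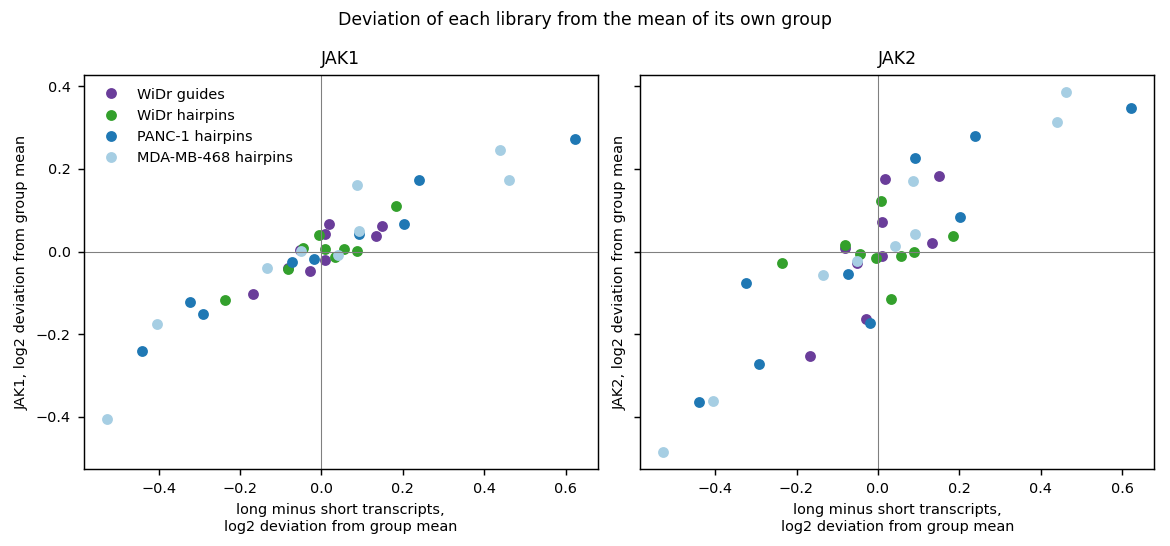
Each of the 36 libraries by the log2 deviation of long minus short transcripts from the mean of its own group (x axis) and that of JAK1 or JAK2 (y axis, left and right panels), coloured by experiment. The widest points belong to PANC-1 and MDA-MB-468, from -0.527 to 0.622 on the x axis, and both genes lie higher where long transcripts do.

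JAK2, the second kinase of the interferon gamma receptor, was thinly covered, with 122 to 714 counts per library. It passed once, with WiDr hairpin 2, at 6.17, 6.69 and 7.36 CPM, against 7.98, 8.09 and 7.91 CPM in controls, while hairpin 1 had 7.18, 7.26 and 7.54 CPM. Both hairpin arms lay below all controls. The hairpin 2 log2 fold change of -0.25 (adjusted p = 0.0434) was lost without any of the 3 control libraries (adjusted p = 0.0789 to 0.0913), without hairpin 1 replicate 2 (adjusted p = 0.0592), without hairpin 2 replicate 1 or 2 (adjusted p = 0.168 and 0.125) and in DESeq2 (adjusted p = 0.0864).

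IFNGR1 rose with both WiDr guides. Guide 2 libraries had 96.2, 102 and 94.0 CPM and guide 1 libraries 96.8, 101 and 100 CPM, against 80.3, 81.2 and 83.9 CPM with the non-targeting guide. The guide arms overlapped each other and lay above all controls (guide 2, 0.27 ± 0.0498, adjusted p = 0.000879, and guide 1, 0.29 ± 0.0498, adjusted p = 0.000165). With WiDr hairpins, IFNGR1 was at 110, 121 and 119 CPM for hairpin 2 and 127, 123 and 123 CPM for hairpin 1, against 118, 112 and 111 CPM in controls. The hairpin 1 change of 0.13 (adjusted p = 0.0479) was lost without control replicate 2 or 3, any hairpin 1 replicate but the third, and any hairpin 2 replicate (adjusted p = 0.0540 to 0.168), and in DESeq2 (adjusted p = 0.0509). In PANC-1 (34.8 to 44.4 CPM) and MDA-MB-468 (217 to 258 CPM) the arms overlapped and nothing passed.

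IFNGR2, the signalling chain of the same receptor, rose in PANC-1. Libraries labelled hairpin 2 had 113, 117 and 119 CPM and hairpin 1 had 124, 110 and 115 CPM, against 77.2, 94.7 and 90.3 CPM in controls. Both arms lay above all controls (0.39 ± 0.0964, adjusted p = 0.0131 in the libraries labelled hairpin 2, and 0.43 ± 0.0964, adjusted p = 0.00925 with hairpin 1). The first was lost without replicate 2 or 3 of the libraries labelled hairpin 2 (adjusted p = 0.0577 and 0.0511). In WiDr, IFNGR2 rose with guide 1, at 61.9, 66.3 and 68.1 CPM against 54.6, 53.8 and 56.3 CPM in controls (0.27 ± 0.0555, adjusted p = 0.00102), while guide 2 at 56.8, 60.2 and 62.8 CPM also lay above the controls but did not pass (0.14, adjusted p = 0.0682). WiDr hairpin 2 libraries (63.4 to 66.6 CPM) lay below hairpin 1 libraries (69.3 to 75.6 CPM), a difference of -0.14 (adjusted p = 0.0392) that was lost without control replicate 3, without hairpin 1 replicate 1 or 2 and without any hairpin 2 library (adjusted p = 0.0604 to 0.125), in DESeq2 (adjusted p = 0.0505) and after the length correction (adjusted p = 0.135). In MDA-MB-468 every hairpin library, from 49.7 to 58.7 CPM, lay above the controls at 42.8 to 45.6 CPM, but neither hairpin passed in edgeR (adjusted p = 0.0974 with hairpin 2 and 0.448 with hairpin 1).

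IFNAR1 rose with WiDr guide 1 alone among the 8 comparisons. Guide 2 libraries had 41.4, 43.0 and 41.6 CPM and guide 1 libraries 48.8, 49.8 and 50.3 CPM, against 40.2, 40.1 and 37.4 CPM with the non-targeting guide. All arms were separate, with log2 fold changes of 0.12 (adjusted p = 0.132) for guide 2 and 0.35 ± 0.0540 for guide 1 (adjusted p = 6.49e-05). In the WiDr hairpin experiment it lay between 50.1 and 55.2 CPM in all 9 libraries, and in PANC-1 between 43.6 and 58.4 CPM. In MDA-MB-468 hairpin 2 had 89.8, 95.9 and 81.3 CPM and hairpin 1 had 94.7, 97.9 and 91.4 CPM, against 61.2, 85.8 and 81.3 CPM in controls, and neither passed (adjusted p = 0.496 and 0.338).

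IFNAR2 passed in 1 of the 8 comparisons with a control. Its 9 WiDr guide libraries lay between 6.18 and 8.41 CPM and its PANC-1 libraries between 17.4 and 20.1 CPM, with arms overlapping. With WiDr hairpin 1 it was at 5.80, 6.83 and 6.08 CPM, below the controls at 7.72, 7.02 and 7.81 CPM, a change of -0.27 (SE 0.103, adjusted p = 0.0407) resting on 156 to 239 counts per library. That call was lost without control replicate 1 or 3, hairpin 1 replicate 1 or 3 or hairpin 2 replicate 2 (adjusted p = 0.0555 to 0.128) and in DESeq2 (adjusted p = 0.0693). In MDA-MB-468 hairpin libraries (32.8 to 34.6 CPM) lay above all controls (27.6 to 30.1 CPM) without passing (adjusted p = 0.259 with hairpin 2 and 0.271 with hairpin 1).

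Counted over the 9 genes, 1 rose and 2 fell with WiDr guide 2, where 14.1% of all genes rose and 11.3% fell, and 5 rose and 1 fell with guide 1, where 21.4% rose and 20.3% fell. With WiDr hairpin 2, 1 rose and 4 fell against 22.2% and 22.5% of all genes, and with hairpin 1, 2 rose and 4 fell against 24.1% and 23.9%. In PANC-1, 4 rose in the libraries labelled hairpin 2 and 3 rose with hairpin 1, where 16.7% and 16.2% of all genes rose, and none fell, where 16.7% and 14% did. In MDA-MB-468 none of the 9 passed in edgeR, where 3.49% of all genes changed with hairpin 2 and 2.27% with hairpin 1. There 3 of the 9 had an unadjusted p under 0.05 with hairpin 2 and 3 with hairpin 1 (edgeR). The share of all genes at that threshold was not computed, so counts at it, here and below, stand without one. DESeq2 called 2 of the 9 (IFNGR2 and IRF1) with MDA-MB-468 hairpin 2 and 0 with hairpin 1. Over all genes DESeq2 also called more than edgeR with both MDA-MB-468 hairpins. Between the hairpins none of the 9 passed in PANC-1 or in MDA-MB-468, beside 0.106% and 0.437% of all genes, with 1 and 0 at an unadjusted p under 0.05, and DESeq2 called none either. Between constructs, 5 genes were lower with WiDr guide 2 than guide 1 (IFNAR1, JAK1, STAT2, IRF1 and IRF9), beside 17.1% of all genes. Between WiDr hairpin 2 and hairpin 1, 2 were lower and 1 higher, beside 21.8% and 20.6%. With 9 genes these counts are too small to set apart from those shares.

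Tests of the difference of the mean construct effect between experiments gave 11 differences. The effect on IRF9 was -0.83 in WiDr hairpins and 0.78 in PANC-1, a difference of -1.61 ± 0.0828 (adjusted p = 6.48e-10). The same comparison gave -0.78 ± 0.0792 for IRF1 (adjusted p = 1.25e-06), -0.67 ± 0.125 for STAT2 (adjusted p = 0.000526) and -0.48 ± 0.0843 for IFNGR2 (adjusted p = 0.000292), so 4 of the 9 genes stand beside 37.2% of all genes. Between WiDr guides and WiDr hairpins the effect on IRF1 was 0.46 against -0.24, a difference of 0.70 ± 0.0550 (adjusted p = 7.59e-10), and that on IRF9 was -0.16 against -0.83, a difference of 0.67 ± 0.0700 (adjusted p = 7.33e-08). IFNAR1, IFNGR1 and IFNGR2 differed by 0.21, 0.19 and 0.22, so 5 of 9 stand beside 41.6% of all genes. The mean effect on STAT2 was -0.35 with guides and -0.34 with hairpins, a difference of -0.0036 ± 0.0799 (adjusted p = 0.977). The guide mean describes neither guide, as STAT2 was at -0.53 with guide 2 and -0.16 with guide 1. Guide 2 was lower than guide 1 by edgeR (-0.37, adjusted p = 4.48e-05). Between PANC-1 and MDA-MB-468 the effect on IRF9 differed by 0.83 ± 0.144 (adjusted p = 0.000546) and that on IFNAR1 by -0.38 (adjusted p = 0.0457), beside 23.9% of all genes. The IFNAR1 difference was lost in 16 of the 18 fits that left out 1 library.

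The genes whose levels followed these 9 most closely were found as the 3 highest correlations of log2 CPM among 11017 genes over 36 libraries, after each experiment's mean had been removed. The points share libraries and arms, so r is a description. For IRF9 they were IFITM1 (r = 0.950), IFI35 (r = 0.922) and IFIT3 (r = 0.909), all interferon-stimulated genes. STAT2 was followed by TRANK1 (r = 0.903), EXTL3 (r = 0.866) and RNF213 (r = 0.866), and IRF1 by CD59, ELF3 and TMBIM1 (r = 0.903, 0.891 and 0.883). JAK1 was followed by MAPK6, RNF19A and ADGRG6 (r = 0.932, 0.929 and 0.928) and JAK2 by FCHO2, ANKIB1 and MAP4K3 (r = 0.882, 0.868 and 0.866). Among the receptor genes, IFNAR1 was followed most closely by WAC (r = 0.890), IFNGR1 by VAMP3 (r = 0.841), IFNGR2 by CLK3 (r = 0.908) and IFNAR2 by ZNF649 (r = 0.699). Within the 9 genes the closest pair was IFNAR1 with JAK1 (r = 0.796), then IFNGR2 with IRF1 (r = 0.705), and STAT2 with IRF9 stood at r = 0.608. These values differed between experiments. In WiDr guides, WiDr hairpins, PANC-1 and MDA-MB-468, STAT2 with IRF9 stood at r = 0.853, 0.828, 0.588 and -0.782. In the same order, IFNGR2 with IRF1 stood at 0.791, -0.141, 0.876 and 0.96. IFNAR1 with JAK1 stood at 0.925, 0.433, 0.615 and 0.975.

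Among 35 interferon-stimulated genes, which are the pathway's transcriptional output, the WiDr arms with the lowest IRF9 had the lowest levels. With WiDr guide 2, 34 of 35 fell and none rose, with a median log2 fold change of -1.18 (0.02 over all genes tested), and with guide 1, 6 fell and 10 rose with a median of 0.0097 (-0.0044 over all genes). With WiDr hairpin 2, 33 of 35 fell and none rose, with a median of -2.29 (-0.0058 over all genes), and with hairpin 1, 18 fell and 3 rose, with a median of -0.19 (0.0015 over all genes). Over all genes 11.3% fell and 14.1% rose with WiDr guide 2, and 20.3% fell and 21.4% rose with guide 1. The guide 1 counts lie near those shares. With WiDr hairpin 2, 22.5% of all genes fell and 22.2% rose, and with hairpin 1, 23.9% fell and 24.1% rose. Genes that fell with both hairpins included IFI6 (-4.36 with hairpin 2 and -1.34 with hairpin 1), UBE2L6, a conjugating enzyme for ISG15 (-3.87 and -1.34), and the immunoproteasome subunit PSMB9 (-2.79 and -1.67).

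In PANC-1, 9 of 33 tested interferon-stimulated genes rose and 1 fell in the libraries labelled hairpin 2, and 13 rose and none fell with hairpin 1, where 16.7% and 16.2% of all genes rose and 16.7% and 14% fell. Their medians were 0.31 and 0.45, against -0.0047 and -0.02 over all genes. IFITM1, a membrane protein that restricts virus entry, rose by 1.67 in the libraries labelled hairpin 2 and 1.79 with hairpin 1, and GBP1, a guanylate-binding protein, by 0.76 and 0.67. In MDA-MB-468, 2 rose and 3 fell of 33 with hairpin 2 and 2 rose with hairpin 1, where 3.49% and 2.27% of all genes changed. An unadjusted p under 0.05 was found for 15 of the 33 with hairpin 2 and for 17 with hairpin 1 (edgeR). The shares of all genes above are at an adjusted p and are no background for these counts. No share was computed at the unadjusted threshold. TRIM22 (0.90 with each hairpin) and HERC5 (0.80 with hairpin 2 and 0.91 with hairpin 1) were the genes that rose with both. An earlier account of these data already described this list, and it gives no independent support to the IRF9 values.

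**Figure D5:**
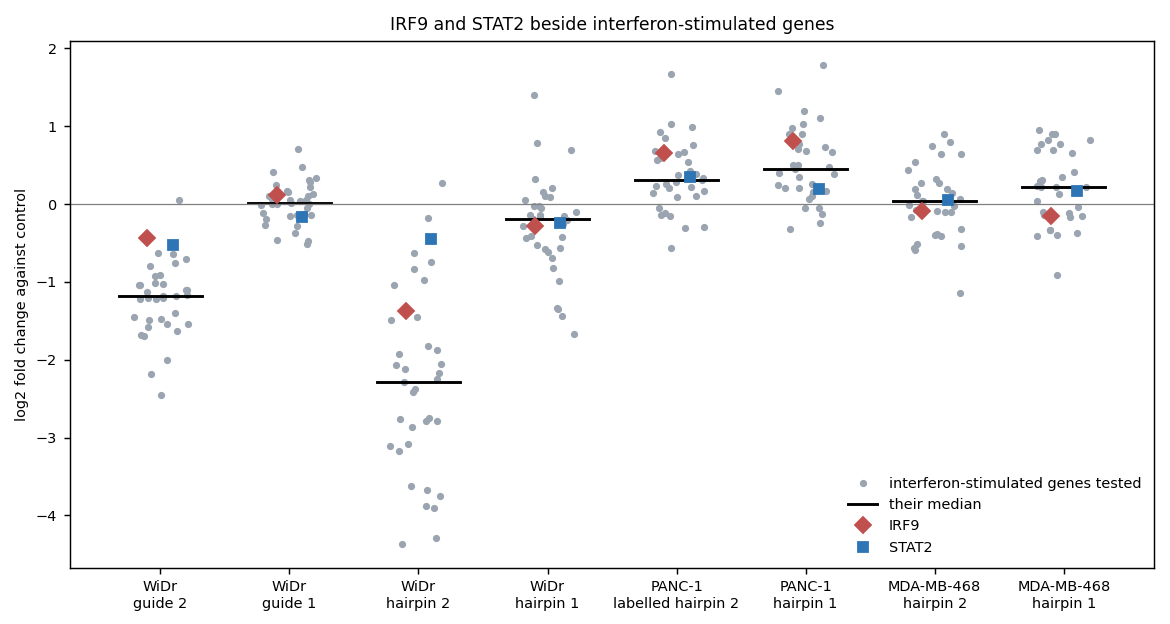
Log2 fold change against control (y axis) of each tested interferon-stimulated gene (grey), their median (black line), IRF9 (red diamond) and STAT2 (blue square) for each construct. In WiDr hairpin 2 the median is -2.29 with IRF9 at -1.38 and STAT2 at -0.44, and in WiDr guide 2 the median is -1.18 with IRF9 at -0.44 and STAT2 at -0.53.

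Of 14 other receptors, kinases and transcription factors of the pathway, 1 rose and 4 fell with WiDr guide 2, 5 rose and 5 fell with guide 1, 1 rose and 9 fell with WiDr hairpin 2, and 2 rose and 5 fell with hairpin 1. Over all genes 14.1%, 21.4%, 22.2% and 24.1% rose and 11.3%, 20.3%, 22.5% and 23.9% fell in the same order of constructs, so several of these counts lie near the shares of all genes. IRF7, a factor that amplifies interferon production, fell by 1.57 with WiDr hairpin 2 and by 0.67 with hairpin 1 on the log2 scale. STAT5A, a STAT factor activated by other cytokines, fell with every WiDr construct, at -0.41 with guide 2, -0.47 with guide 1, -0.39 with hairpin 2 and -0.69 with hairpin 1. In PANC-1, where 16.7% of all genes rose in the libraries labelled hairpin 2 and 16.2% with hairpin 1, 6 of 14 rose in each hairpin arm and none fell, including IFNLR1, the type III interferon receptor chain (1.12 in the libraries labelled hairpin 2 and 1.08 with hairpin 1), STAT6 (0.39 and 0.31) and IRF2 (0.44 and 0.25). In MDA-MB-468, 13 were tested, none passed in edgeR with hairpin 2 (1 had an unadjusted p under 0.05), and 1 rose with hairpin 1.

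Of 14 negative regulators of the pathway, 4 fell with WiDr guide 2, 4 rose and 2 fell with guide 1, 2 rose and 3 fell with WiDr hairpin 2, and 3 rose and 1 fell with hairpin 1, where 13 were tested. In PANC-1, 2 rose and 3 fell in the libraries labelled hairpin 2 and 2 rose and 1 fell with hairpin 1. Read against the shares of all genes given above for each construct, these counts are too small to set apart. The JAK inhibitor SOCS3 rose there (0.73 and 0.90) and PTPN2, a phosphatase that acts on JAK1, fell (-0.73 and -0.66). None of the 14 passed in MDA-MB-468 in edgeR, where 3 had an unadjusted p under 0.05 with hairpin 2 and 1 with hairpin 1.

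Interferon genes themselves had few counts. Of 21 listed, 3 passed the low-count filter in WiDr guides, 2 in WiDr hairpins, 1 in PANC-1 and 0 in MDA-MB-468. IFNE, an epithelial type I interferon, was the most abundant, at 5.12 ± 0.565 CPM in WiDr hairpin 2 and 8.71 ± 0.613 CPM in hairpin 1, against 6.54 ± 0.582 CPM in WiDr hairpin controls (SD, n = 3 each). IFNE fell with hairpin 2 (-0.34, adjusted p = 0.0183, edgeR) and rose with hairpin 1 (0.42, adjusted p = 0.00406). In WiDr guide arms it did not pass (-0.27, adjusted p = 0.143 with guide 2, and 0.22, adjusted p = 0.171 with guide 1). IFNB1 reached at most 15 counts in any library. IFNG was counted only in PANC-1 hairpin 1, at 2 counts at most.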

How the data were processed

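The 36 poly-A libraries were read on a HiSeq 2500, per the labels. The deposited values are an expected count per gene and library, and the authors made these estimated counts with Bowtie2 2.1.0 and RSEM 1.2.15 on hg38, per the submitters' processing notes. The annotation and the strand setting: not given in the sources used here. Expected counts were rounded to whole numbers. Each experiment was fitted alone with edgeR 4.0.16 (R 4.3.3), using filterByExpr (minimum count 10), TMM and robust quasi-likelihood F tests, with Benjamini-Hochberg adjustment over all genes tested and a threshold of 0.05. Differences of effects and control levels were fitted over the experiments they compare. SE is the absolute log2 fold change divided by the square root of F. CPM uses TMM over all 36 libraries, and log2 CPM a pseudocount of 0.5. p-values measure the spread between the 3 biological replicates that the design text states. Replicate numbers did not pair the samples in the same way in every experiment, and no block was used in the main fits. Scripts were tested on simulated data. All 9 genes are named in each comparison. Of each pathway list, the text names genes of mean CPM 1 or more that were called in the same direction with both constructs of an experiment, up to 5 by the smaller absolute change, and not all of these are reported here. STAT5A and IFNE with guides, IFNB1 and IFNG were named after their values were seen. Members and lists were chosen with earlier results of these data known. The gene that the constructs address is not reported here. Alternatives were DESeq2 1.42.0, RLE scaling, other filters and fits, and each library left out.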

Additional observations from a re-analysis of the deposited data

Results flagged for a closer look

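For 11 values the effect of the targeting constructs differed between experiments by a test of the difference itself (edgeR interaction, Benjamini-Hochberg, adjusted p below 0.05). Effects are the mean of both constructs against their control, on the log2 scale. WiDr hairpins minus PANC-1 hairpins gave -1.61 for IRF9, -0.78 for IRF1, -0.67 for STAT2 and -0.48 for IFNGR2, and the IRF9, IRF1 and STAT2 effects were negative in WiDr and positive in PANC-1. PANC-1 minus MDA-MB-468 hairpins gave 0.83 for IRF9 and -0.38 for IFNAR1. WiDr guides minus WiDr hairpins gave 0.70 for IRF1, 0.67 for IRF9, 0.22 for IFNGR2, 0.21 for IFNAR1 and 0.19 for IFNGR1. The last comparison averages guide arms that differed from each other for IFNAR1, IRF1 and IRF9, so its mean describes neither guide. The WiDr hairpins differed from each other for IRF9 too (-1.38 with hairpin 2 and -0.29 with hairpin 1), so their mean of -0.83 describes neither hairpin. No group has the 4 libraries needed to look for a single library far from the others.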

How the results depend on the processing

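Of the alternative values for single genes, 2951 kept their side of the threshold. These include values that changed sign without passing the threshold in either fit, such as IFNAR1 with WiDr hairpin 2 (0.05, and -0.07 with length bins). In the same direction, 101 lost a call and 37 gained one. A further 7 changed sign with a call in either fit. The number of the 9 genes called in MDA-MB-468 was 0 and became 2 (all 36 libraries in 1 fit) or 1 (transcript length bins, added after seeing the data) with hairpin 1, and 2 (DESeq2), 2 (all 36) or 3 (length bins) with hairpin 2. In PANC-1 the 3 called with hairpin 1 became 6 without control replicate 1 and hairpin 1 replicate 1 together, a setting added after seeing the data, in which JAK1 turned to 0.24 (adjusted p = 0.00217); libraries left there in the control stand at -0.528 and -0.487 on the length measure, against 0.160 and 0.205 for hairpin 1. The 4 called in the libraries labelled hairpin 2 became 2 with the replicate block, which ended those of STAT2 (adjusted p = 0.0883) and IRF1 (adjusted p = 0.066), and 0 between PANC-1 hairpins became 1 (all 36). All 36 in 1 fit gave 3 in place of 5 with WiDr hairpin 2 and 1 in place of 3 between WiDr hairpins. Length bins gave 5 in place of 3 with WiDr guide 2. Guides grouped by the genotype field gave 1 (guide 1), 0 (guide 2) and 0 (between guides) in place of 6, 3 and 5, with guide 2 against control at 0.21 for IRF9, and guide 2 against guide 1 at 0.15 for IFNAR1, 0.12 for JAK1, 0.19 for STAT2, 0.46 for IRF1 and 0.43 for IRF9. The PANC-1 minus MDA-MB-468 difference gave 1 in place of 2 with RLE scaling and with no low-count filter. Leaving out each library gave 3 to 4 (WiDr guide 2), 5 to 6 (guide 1), 5 to 6 (between guides), 4 to 5 (WiDr hairpin 2), 4 to 5 (hairpin 1), 1 to 3 (between hairpins), 1 to 5 (PANC-1 labelled hairpin 2), 3 to 4 (hairpin 1), 0 to 1 (MDA-MB-468 hairpin 2), 0 to 0 (hairpin 1), and 5 to 5, 4 to 6 and 1 to 2 for the differences of effects in the order guides minus hairpins, WiDr minus PANC-1 and PANC-1 minus MDA-MB-468.

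The replicate numbers did not pair the samples in the same way in every experiment. Between arms, same-numbered libraries correlated at -0.814 to 0.791 and libraries of other numbers at -0.776 to 0.735. Libraries correlated best with their own number in 4 of 9 (MDA-MB-468), 2 of 9 (PANC-1), 1 of 9 (WiDr hairpins) and 8 of 9 (WiDr guides). In WiDr guides these ranges were -0.102 to 0.247 and -0.187 to 0.116. This is a hint from the data and not the design. The replicate block moved all genes called in PANC-1 to 3254 in place of 5053 (labelled hairpin 2), 2943 in place of 4566 (hairpin 1) and 5 in place of 16 (between them), and in MDA-MB-468 to 35 in place of 64 between hairpins. All genes called moved by over 1.5 times in other settings too. They became 1103 (DESeq2), 1268 (all 36), 127 (6 libraries) and 1490 (length bins) in place of 511 with MDA-MB-468 hairpin 2, and 805, 900, 177 and 1006 in place of 332 with hairpin 1. Between hairpins, DESeq2, all 36 and length bins gave 386, 399 and 414 in place of 64 in MDA-MB-468 and 256, 510 and 209 in place of 16 in PANC-1, where 6 libraries gave 2966 in place of 4566 with hairpin 1. All 36 gave 3964 in place of 6403 (WiDr hairpin 2), 3210 in place of 6071 (between WiDr hairpins), 1261 in place of 3731 (guide 2), 3620 in place of 6100 (guide 1) and 2802 in place of 5040 (between guides), and the genotype field gave 127, 1353 and 0 for the guides. The causes were not tested. Counts per library were low for JAK2 (122 to 714 over the experiments), for IFNAR2 in WiDr (156 to 339) and for IRF9 in MDA-MB-468 (172 to 238), which limits their precision.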
